A study of Mus musculus with 4 samples.

Results

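The liver-enriched transcription factors described here were Hnf4a, Foxa1, Foxa2, Foxa3, Cebpa, Cebpb, Cebpd and Onecut1. They were found by gene symbol: every probe set (a group of short probes against 1 transcript) whose platform annotation named exactly 1 gene, that gene being one of the 8, was used. All 8 genes were found, out of 18193 genes with such a probe set, through 14 probe sets: 4 for Hnf4a, 2 each for Cebpb, Cebpd and Onecut1, and 1 each for the others. The arrays held total RNA of mature liver of C57BL/6J mice, taken 48 h after surgery. There were 2 arrays after partial hepatectomy, in which lobes are cut away and the liver left behind regrows, and 2 arrays after a sham operation, with no mutation or transgene in either group. The design text calls the arrays of a group biological duplicates. The sources used here give neither age nor sex, nor the share of liver removed, nor whether an array held 1 animal or a pool. The p-values set the difference between the groups against the spread between these duplicate arrays. How much of that spread lies between animals, and how much is technical, is not known.

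Hepatocytes keep their identity through a network of transcription factors that bind each other's genes and the genes of liver function. HNF4A is a nuclear receptor that drives genes of lipoproteins, clotting factors and bile acid synthesis. The FOXA proteins are pioneer factors that open chromatin, and Onecut1 (HNF6) works with them in liver and bile duct development. The C/EBP proteins are leucine zipper factors that bind DNA as dimers: C/EBP alpha is known for metabolic genes and for restraining hepatocyte division, whereas C/EBP beta and C/EBP delta are known for the acute phase response, and C/EBP beta is needed for normal liver regeneration in mice.

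Promoter sequence was read from RefSeq windows on GRCm38.p6 that run from 250 bases before to 50 bases after a transcript start; 7 of the 8 factors matched, with 10 windows. Each window was searched on both strands for 4 motifs of the factors themselves. These were TTNNGCAA for C/EBP, TGTTTAC or TGTTTGC for FOXA, CAAAGT (the core of the HNF4 site) for HNF4, and ATTGAT or ATCGAT for Onecut factors. Shown here are the promoters of the 3 members furthest from the sham level with groups that did not overlap and of the upstream Hnf4a start, which is used more in pancreas than in adult liver, with any match in capitals.

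Cebpa, chr7:35119043-35119342, plus strand: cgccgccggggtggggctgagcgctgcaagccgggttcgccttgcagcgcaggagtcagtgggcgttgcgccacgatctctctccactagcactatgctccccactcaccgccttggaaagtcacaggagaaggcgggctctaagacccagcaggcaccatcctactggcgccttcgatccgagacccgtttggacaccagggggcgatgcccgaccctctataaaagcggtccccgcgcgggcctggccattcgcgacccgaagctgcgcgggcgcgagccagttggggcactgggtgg
Foxa2, chr2:148046920-148047219, minus strand: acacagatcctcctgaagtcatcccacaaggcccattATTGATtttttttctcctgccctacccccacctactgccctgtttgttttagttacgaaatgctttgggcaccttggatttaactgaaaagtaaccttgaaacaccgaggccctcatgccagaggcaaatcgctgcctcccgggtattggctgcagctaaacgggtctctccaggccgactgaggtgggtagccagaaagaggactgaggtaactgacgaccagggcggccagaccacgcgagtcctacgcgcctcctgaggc
Foxa1, chr12:57546062-57546361, minus strand: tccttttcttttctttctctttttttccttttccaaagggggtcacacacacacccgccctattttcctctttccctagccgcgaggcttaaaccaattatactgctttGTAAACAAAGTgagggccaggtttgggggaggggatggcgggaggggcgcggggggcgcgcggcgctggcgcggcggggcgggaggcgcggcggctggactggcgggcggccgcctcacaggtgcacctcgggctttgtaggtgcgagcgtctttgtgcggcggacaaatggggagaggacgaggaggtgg
Hnf4a, chr2:163506607-163506906, plus strand: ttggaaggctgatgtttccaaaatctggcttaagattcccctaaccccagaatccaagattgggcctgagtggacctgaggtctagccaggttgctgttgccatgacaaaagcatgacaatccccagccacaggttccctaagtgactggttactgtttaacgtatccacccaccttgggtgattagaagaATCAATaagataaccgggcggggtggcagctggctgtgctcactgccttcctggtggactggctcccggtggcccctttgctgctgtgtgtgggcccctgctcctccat

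The Cebpa window held none of the 4 motifs. The Foxa2 window, the most upstream of 3 for that gene, held an Onecut motif starting 213 bases before the transcript start. The Foxa1 window held a FOXA motif starting 141 bases before the start that overlaps an HNF4 motif by 2 bases. The upstream Hnf4a window held an Onecut motif 59 bases before the start; the other Hnf4a window, 40298 bases downstream, lies at the promoter used mainly in adult liver and held no match. Among the 10 member windows, 1 held a FOXA motif, 2 an HNF4 motif, 2 an Onecut motif and 0 a C/EBP motif. Over all 32851 windows the shares were 8.48% for FOXA, 14.4% for HNF4, 8.40% for Onecut and 10.8% for C/EBP. A match is a stretch of letters and not a measured binding site, and a window without a match says nothing about the factor.

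Each array carried 1 signal per probe set on a linear scale. After trimming 2% at each end, the mean signal was 500 on every array, and the median signal lay between 46.4 and 57.5 on hepatectomy arrays and between 47.6 and 48.7 on sham arrays. One array stood apart: 9 adrenal markers summed to a signal of 20146 in hepatectomy replicate 1 and 213 in replicate 2, against 211 and 184 in the sham arrays. The 8 adipocyte markers summed to 12898 and 17749.9 on the hepatectomy arrays, against 32568 and 29053 on the sham arrays; without Car3 and Thrsp, which liver also expresses, the other 6 summed to 6891 and 2881 on the hepatectomy arrays, against 1237 and 1356 on the sham arrays. That split was made after the values were seen. Most of each of the latter sums came from Fabp4, which gave 4391 and 2592, against 1072 and 1264. Retn and Ucp1 were raised in hepatectomy replicate 1 only (284 and 213), with 13.8 and 11.8 in replicate 2. Adipoq and Cidec gave 574 and 1406 in replicate 1, and in replicate 2 (56.3 and 184) also lay above both sham arrays. The labelled tissue matched its markers: 12 hepatocyte markers summed to between 155626 and 162686 on hepatectomy arrays and between 152241 and 176828 on sham arrays, and limma called 0 of the 12, with 0 under an unadjusted p of 0.05. Without hepatectomy replicate 1, also 0 of 12 were called.

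None of the 14 probe sets of the 8 factors passed the test between hepatectomy and sham livers at 48 h. Cebpa and Foxa2 had the lowest unadjusted p, at 0.688 and 0.633 times the sham level. The lowest signal of any of the 14, 53.2, was above 20.4, the highest signal of 27 bacterial control probe sets, and all 14 were bright enough to be tested. That does not show detection of each transcript. On the sham arrays the adrenal markers Star and Cyp21a1 gave 66.5 to 99.6, while Hsd3b1 gave 9.16 and 3.50. The dimmest probe sets of Hnf4a and Cebpb lay near the level of Star and Cyp21a1. Differences were tested with limma on log2(signal + 8.58), a scale that understates the change of dim probe sets, with Benjamini-Hochberg adjustment over all 27022 probe sets tested. At an adjusted p of 0.05, limma called 0 of 14 member probe sets, where 3.39% of all tested probe sets were called, 2.51% higher and 0.877% lower after hepatectomy. With an unadjusted p under 0.05 there were 2 of 14, Cebpa and Foxa2, against 16.6% of all. A count of 0 among 14 is near that background and is not a result about the members. The median log2 fold change of the 14 was -0.04, against 0.00 over all tested probe sets, and the median absolute change was 0.17, against 0.26 over all. In bulk liver, fewer cells of a type and less RNA per cell cannot be told apart.

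**Figure D1:**
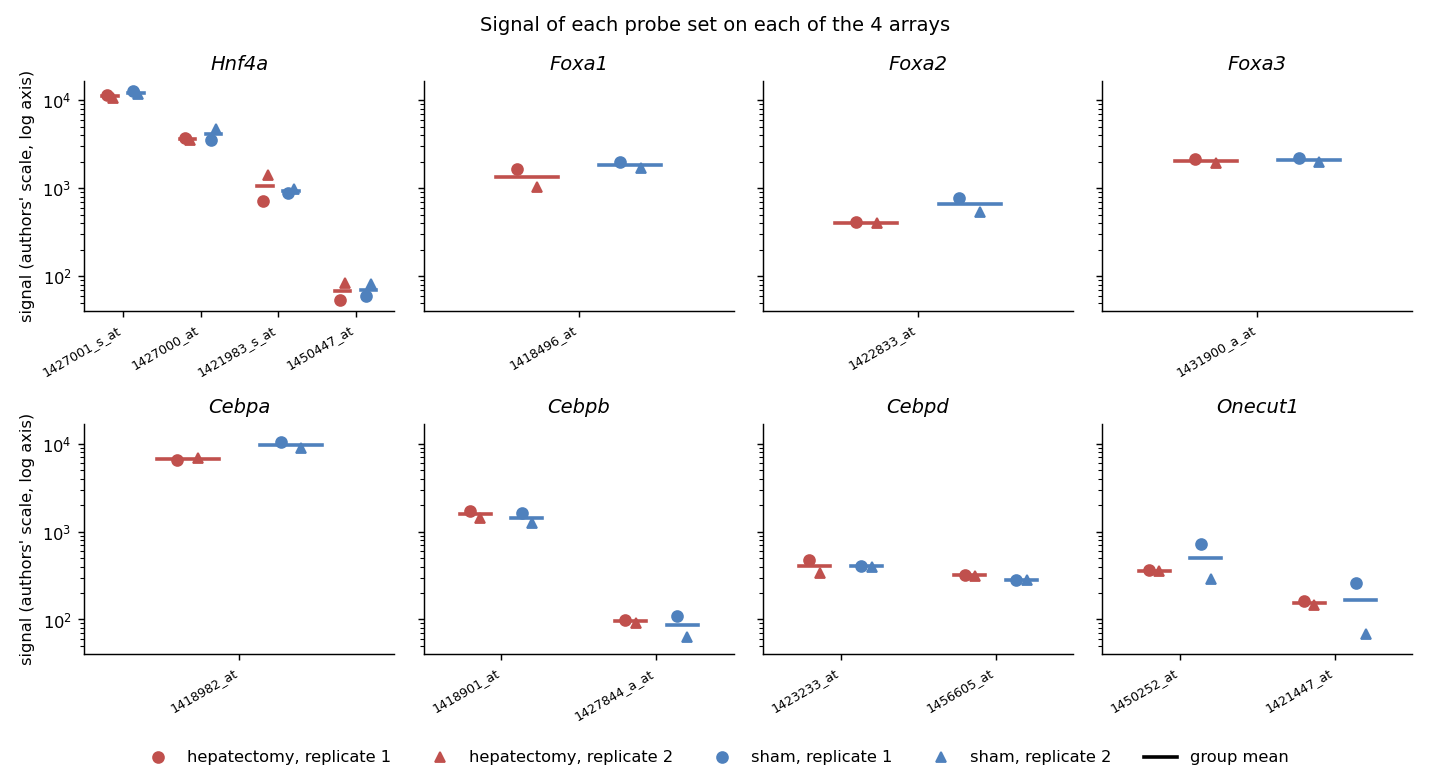
Signal of each of the 14 probe sets (log axis, the authors' linear scale) on the 2 hepatectomy arrays (red) and the 2 sham arrays (blue), with circles for replicate 1, triangles for replicate 2 and bars for group means. Cebpa and Foxa2 sit lower on both hepatectomy arrays, and the sham arrays stand furthest apart for Onecut1.

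The arrays of the groups did not overlap for 5 probe sets. Those of Cebpa, Foxa1, Foxa2 and the brightest Hnf4a probe set were lower on both hepatectomy arrays, 4 of 14 against 23.3% of all tested probe sets. One of Cebpd was higher on both, 1 of 14 against 24.4% of all. The difference between group means exceeded both differences between arrays of 1 group in 4 of the 14, against 34.6% of all tested probe sets. The 95% intervals of limma bound what these arrays could have missed: 10 of the 14 lay within a 2-fold change in both directions. The other 4, for Foxa1, Foxa2 and both Onecut1 probe sets, reached beyond 2-fold in at least 1 direction. With 2 arrays per group, the standard error of a member probe set lay between 0.10 and 0.53 on the log2 scale.

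**Figure D2:**
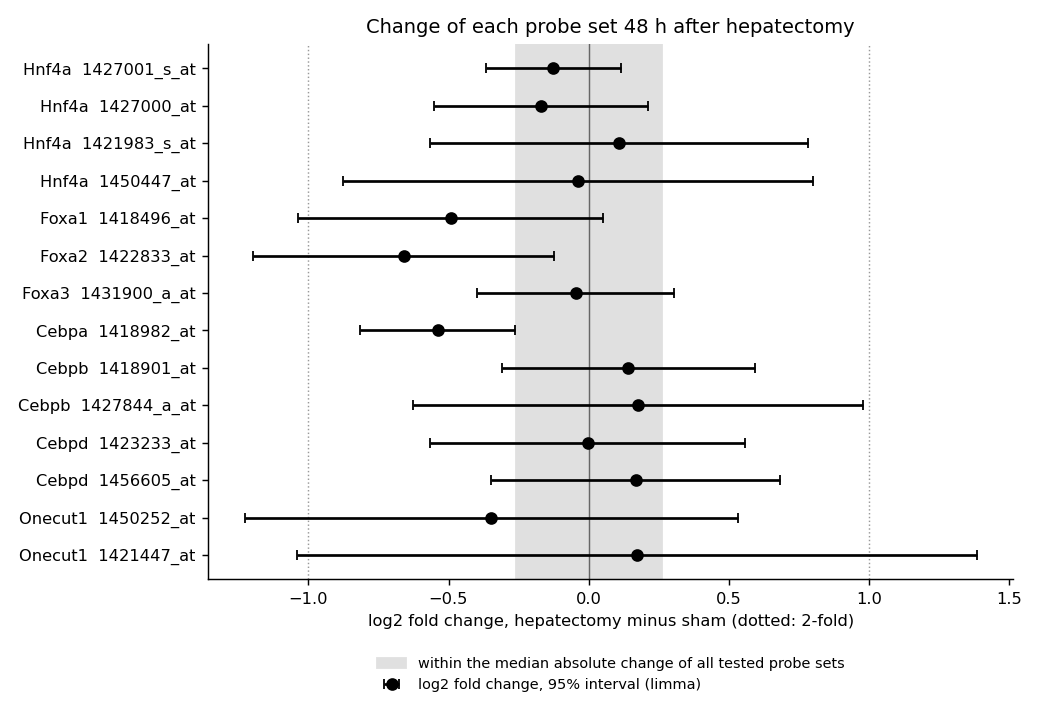
Log2 fold change of each probe set, hepatectomy minus sham, with its 95% interval from limma; the grey band spans the median absolute change of all tested probe sets (0.26) and dotted lines mark a 2-fold change. The intervals of Cebpa and Foxa2 lie below 0 before adjustment, and those of Onecut1 are the widest.

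Hnf4a encodes the nuclear receptor at the centre of the network. Its brightest probe set, 1427001_s_at, had signals of 11559 and 10740.4 after hepatectomy, against 12608 and 11719.8 after sham surgery. Both hepatectomy arrays were below both sham arrays, by less than the median change of all probe sets: the log2 fold change was -0.13 ± 0.10 (SE; 95% interval -0.37 to 0.11; limma adjusted p = 0.621). This was the narrowest interval of the 14; as a fold of the sham level it ran from 0.776 to 1.08, without adjustment for the number of probe sets.

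The probe set 1427000_at gave 3723 and 3546 in hepatectomy livers and 3517 and 4757 in sham livers, with overlapping groups. Its log2 fold change was -0.17 ± 0.17 (limma adjusted p = 0.688). The probe set 1421983_s_at gave 724 and 1401 after hepatectomy, against 887 and 985 after sham surgery. Here the hepatectomy arrays stood on both sides of the sham arrays, at a log2 fold change of 0.11 ± 0.29 (limma adjusted p = 0.904). The dimmest, 1450447_at, lay between 53.2 and 84.2 on hepatectomy arrays and between 59.1 and 80.7 on sham arrays. On the scale tested, which understates the change of the dimmest, no Hnf4a probe set had an interval that reached a 2-fold change. The direction was not the same in all 4: 3 were negative and 1 positive. The sources used here do not say which Hnf4a isoforms each probe set detects.

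Among the FOXA factors, Foxa2 and Foxa1 were lower on both hepatectomy arrays and Foxa3 lay level, and none passed the test. Foxa2, whose product is needed for bile acid homeostasis in mouse liver, had signals of 411 and 399 after hepatectomy, against 769 and 541 after sham surgery. The hepatectomy arrays were close to each other and both below the sham arrays. The log2 fold change of -0.66 ± 0.23 (95% interval -1.20 to -0.12) was the largest of the 14 in size, and 15.8% of all tested probe sets changed by more. The unadjusted p was 0.0220 and the limma adjusted p = 0.202; over the alternatives run, the adjusted p of Foxa2 lay between 0.125 and 0.763.

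Foxa1 had signals of 1664 and 1030.2 after hepatectomy, against 1991 and 1711 after sham surgery. The groups did not overlap, but hepatectomy replicate 1 lay close to the lower sham array: the log2 fold change was -0.49 ± 0.24 (95% interval -1.04 to 0.05; limma adjusted p = 0.352). Without hepatectomy replicate 1, the array with adrenal transcripts, Foxa1 was called lower at -0.84 ± 0.20 (adjusted p = 0.0363), and without replicate 2 its value was -0.15 (adjusted p = 0.750). The part of the adrenal transcripts in this was not tested. Foxa3, whose loss in mice lowers several liver transcripts, had signals of 2125 and 1917 in hepatectomy livers and 2189 and 1988 in sham livers. Its groups overlapped, with a log2 fold change of -0.05 ± 0.15 (95% interval -0.40 to 0.30; limma adjusted p = 0.919). Whether the 3 FOXA changes differ from each other was not tested.

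Of the C/EBP factors, Cebpa was lower after hepatectomy and lay just outside the threshold, while Cebpb and Cebpd lay near the sham level. Cebpa, whose product restrains hepatocyte division, had signals of 6463 and 6823 in hepatectomy livers and 10404 and 8956 in sham livers. Both hepatectomy arrays were below both sham arrays, by more than either pair of arrays differed within its group. The mean signal was 6643 ± 254 after hepatectomy and 9680.0 ± 1024 after sham surgery (SD, n = 2 each), with a log2 fold change of -0.54 ± 0.12 (95% interval -0.82 to -0.26, or 0.688 times the sham level; limma adjusted p = 0.0547). It was called with quantile normalization (adjusted p = 0.0180), with robust eBayes (0.0346) and with the replicate number as a block (0.0217). Over the other alternatives, its adjusted p lay between 0.0545 and 0.302, and the direction was negative in every alternative run.

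Cebpb, the C/EBP factor tied to regeneration and the acute phase, had signals of 1729 and 1432 after hepatectomy and 1642 and 1238 after sham surgery in its brighter probe set, 1418901_at. The arrays of the groups overlapped, and the log2 fold change was 0.14 ± 0.20 (95% interval -0.31 to 0.59; limma adjusted p = 0.790). Its dimmer probe set, 1427844_a_at, gave 98.3 and 91.4 against 108 and 62.9, with a log2 fold change of 0.18 ± 0.35 (limma adjusted p = 0.860). Cebpd, the other inducible factor, had signals of 478 and 334 after hepatectomy and 403 and 398 after sham surgery in 1423233_at (log2 fold change 0.00 ± 0.24; limma adjusted p = 0.996). Its probe set 1456605_at gave 323 and 310 in hepatectomy livers against 280.2 and 281.6 in sham livers. The arrays of each group lay close together and the groups did not overlap, but the log2 fold change of 0.17 ± 0.22 did not pass (limma adjusted p = 0.779). Arrays at 48 h say nothing of earlier times.

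The balance of Cebpb against Cebpa on each array was computed after the values were seen and carries no test. On the log2 scale, Cebpb minus Cebpa was -1.90 and -2.25 on the hepatectomy arrays, against -2.66 and -2.85 on the sham arrays. The difference was therefore higher on both hepatectomy arrays, by 0.68 on average, or 1.60-fold. Most of this came from the lower Cebpa signal, 0.54 of the 0.68, and 0.14 from Cebpb.

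Onecut1 was the member with the widest spread between replicates. Its probe set 1450252_at gave 362 and 352 after hepatectomy, against 716 and 290 after sham surgery, and 1421447_at gave 162 and 145 against 261 and 68.2. In both probe sets the hepatectomy arrays agreed closely, while sham replicate 1 was above them and sham replicate 2 below. The sham arrays differed 2.43-fold and 3.51-fold, and 1.76% and 0.403% of all tested probe sets differed more between those arrays. The log2 fold changes were -0.35 ± 0.38 (95% interval -1.23 to 0.53; limma adjusted p = 0.725) and 0.17 ± 0.53 (95% interval -1.04 to 1.38; limma adjusted p = 0.915). The sign of each depended on which sham array was kept: without sham replicate 1 the first was 0.29, and without sham replicate 2 the second was -0.73. The 8 cholangiocyte markers, of another cell type that expresses Onecut1, summed to 1925 and 1152 on the hepatectomy arrays, against 713 in sham replicate 1 and 958 in sham replicate 2. Single markers differed in which sham array was higher: Krt19 gave 74.6 in sham replicate 1 and 204.9 in replicate 2, whereas Epcam gave 99.3 and 57.9. Their part in the Onecut1 values was not tested.

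**Figure D3:**
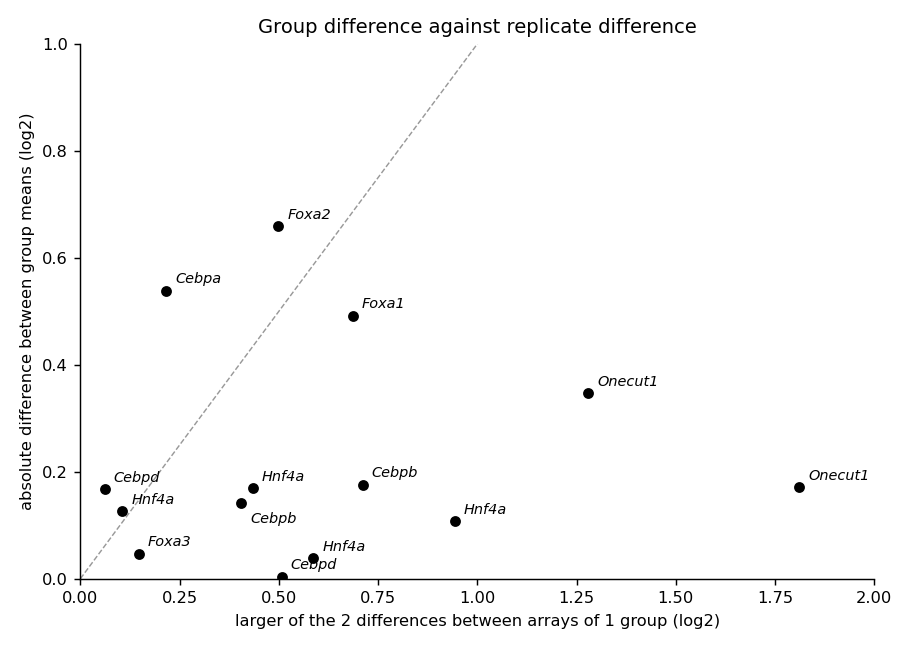
Absolute difference between the group means of each probe set (log2, vertical) against the larger of the differences between arrays of 1 group (log2, horizontal); the dashed line marks equality. Only Foxa2, Cebpa and 1 probe set each of Cebpd and Hnf4a lie above the line, and the Onecut1 probe sets lie furthest right.

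Other transcription factors of the liver moved more than the 8 did in a few cases. Of 24 measured in that list, 3 fell and 1 rose, against 1.09% and 3.57% of all 12560 genes tested, each gene standing by its brightest probe set. The median log2 fold change of the list was -0.05, against 0.02 over all genes. Srebf1, which drives lipogenic genes, fell to 1661 and 2434 in hepatectomy livers, against 4950.3 and 5747 in sham livers. Dbp, a clock output factor, fell by 1.30 ± 0.20 on the log2 scale (limma adjusted p = 0.0143), and Mlxipl, the carbohydrate response factor ChREBP, fell by 1.05 ± 0.20 (limma adjusted p = 0.0332). Atf5, a leucine zipper factor of stress responses, rose by 0.98 ± 0.21 (limma adjusted p = 0.0428).

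These calls rested on few arrays: without sham replicate 1 the list held 1 lower and 0 higher, without sham replicate 2 it held 0 and 2, and without hepatectomy replicate 2 it held 8 and 1. Atf5 was also not called after median centring (adjusted p = 0.0561). The closest relative of Onecut1 in liver, Onecut2, had signals of 2490.3 and 2848 in hepatectomy livers and 2383 and 2711 in sham livers. Nr0b2, the corepressor SHP that opposes HNF4A at bile acid genes, gave 3916 and 4962 against 1291 and 2979; the arrays did not overlap, but the log2 fold change of 1.16 ± 0.34 did not pass (limma adjusted p = 0.124). It was called without sham replicate 2 (adjusted p = 0.00815) and with the replicate number as a block (0.000589). Rxra, a partner of many nuclear receptors, lay at -0.14 ± 0.12 (limma adjusted p = 0.631).

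Among 9 measured dimer partners and other C/EBP relatives, 1 rose and 0 fell, with 4 under an unadjusted p of 0.05. Over all genes, 3.57% were called higher and 1.09% lower, and 16.6% of all probe sets lay under that unadjusted p. Nfil3, a leucine zipper repressor, rose to 1776 and 1293 after hepatectomy, against 822 and 635 after sham surgery (log2 fold change 1.06 ± 0.22; limma adjusted p = 0.0437). It lost its call without either sham array and without hepatectomy replicate 1 (adjusted p from 0.0727 to 0.232), and with quantile normalization (0.0524); without hepatectomy replicate 2, 4 of the 9 were called higher. Cebpg, a C/EBP without an activation domain, lay at -0.02 ± 0.17, and Ddit3, the stress-induced partner CHOP, lay at -0.24 ± 0.23; neither passed. Of 18 regulators of C/EBP factors, limma called 0, with 7 under an unadjusted p of 0.05, and without hepatectomy replicate 2 it called 3 higher and 2 lower. Trib1, which directs C/EBP alpha to degradation, had signals of 865 and 889.7 in hepatectomy livers and 658 and 649 in sham livers (log2 fold change 0.42 ± 0.18; limma adjusted p = 0.295).

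Genes that the 8 factors are known to drive were called in both directions. The target lists were drawn from textbook knowledge with earlier results of these data known, and genes can stand on several of them. Over all 12560 genes tested, 3.57% were called higher and 1.09% lower. Of 26 acute phase targets of C/EBP beta and delta, 8 rose and 0 fell, with a median log2 fold change of 0.65. Lcn2, which encodes a protein that binds bacterial siderophores, had signals of 15286 and 11858 in hepatectomy livers and 485 and 251 in sham livers (log2 fold change 5.23 ± 0.29; limma adjusted p = 0.000433). Saa2, a serum amyloid A, had signals of 14846 and 12731 in hepatectomy livers and 4256 and 3703 in sham livers (log2 fold change 1.79 ± 0.13; limma adjusted p = 0.000722). Orm2, an acid glycoprotein, had 12372 and 8726 against 1901 and 2716 (2.19 ± 0.22; limma adjusted p = 0.00181), and Apcs, serum amyloid P, rose by 1.03 ± 0.11 (limma adjusted p = 0.00287). Saa1 rose by 0.78 ± 0.12, and Mt1, Orm3 and Lbp, named after their values were seen, also rose. Each of these was higher on both hepatectomy arrays, while Cebpb and Cebpd themselves were not called.

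When 1 array was left out, the acute phase count was 7 to 12 and the median 0.33 to 0.83; without hepatectomy replicate 1, the array with adrenal transcripts, they were 8 of 26 and 0.33. Probe sets of near-identical relatives (Saa1 and Saa2, or Orm2 and Orm3) may share signal. Beside this group, the summed signal of 10 neutrophil markers also stood higher, at 10222 and 3704 on the hepatectomy arrays, against 573 and 463 on the sham arrays. Of these, 2 of the 4 tested were called higher and 6 were too dim to test. The 2 called, S100a8 (4173 and 1204 after hepatectomy) and S100a9 (5649 and 2316), made up most of the sums. Of the other 2 tested, Mmp9 was higher on both hepatectomy arrays. Csf3r overlapped, with 77.4 and 27.8 against 34.6 and 33.9. Lcn2 is abundant in neutrophils as well as in stimulated hepatocytes, and the part of neutrophils in the result was not tested. Of the 8 genes that rose, 7 had a promoter window and 5 of these (Lcn2, Orm2, Orm3, Saa1 and Saa2) held the C/EBP motif; the windows of Apcs and Mt1 did not. Of the 18 that were not called, 14 had a window and 7 of these held it. Because the list names genes known to answer to C/EBP factors, these counts only describe the windows. The windows of Orm2 and Lcn2, the 2 of the 8 with the highest log2 fold changes, are printed here with the motif in capitals.

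Orm2, chr4:63362199-63362498, plus strand: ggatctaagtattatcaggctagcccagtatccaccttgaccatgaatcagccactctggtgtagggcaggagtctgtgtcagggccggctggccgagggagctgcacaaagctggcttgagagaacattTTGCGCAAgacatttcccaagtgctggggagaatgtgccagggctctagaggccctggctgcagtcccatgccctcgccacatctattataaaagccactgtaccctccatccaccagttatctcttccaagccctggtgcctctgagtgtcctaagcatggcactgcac
Lcn2, chr2:32387690-32387989, minus strand: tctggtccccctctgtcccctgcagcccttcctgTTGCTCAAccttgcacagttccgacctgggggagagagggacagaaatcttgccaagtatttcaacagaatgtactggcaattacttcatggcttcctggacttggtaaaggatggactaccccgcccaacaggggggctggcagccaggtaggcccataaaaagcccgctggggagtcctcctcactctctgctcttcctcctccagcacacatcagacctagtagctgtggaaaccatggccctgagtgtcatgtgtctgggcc

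In Orm2 the motif starts 120 bases before the transcript start and matches on both strands, and in Lcn2 it starts 216 bases before the start.

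Genes driven by HNF4A were also called in both directions: of 27 measured, 5 fell and 2 rose. The median log2 fold change was -0.08, and 23 values were negative, against 47.1% of all genes tested. With 1 array left out, that median lay between -0.20 (hepatectomy replicate 2) and -0.07 (sham replicate 1). The bile acid enzyme gene Cyp8b1 fell to 184 and 125 after hepatectomy, against 7122 and 2470.2 after sham surgery. Cyp7a1 fell to 95.2 and 196 in hepatectomy livers, against 3115 and 1761 in sham livers, and Cyp27a1 fell by 0.92 ± 0.14. Ugt2b1 and Abcg8, named after their values were seen, also fell. Apoa4, an apolipoprotein of triglyceride-rich particles, rose to 11404 and 11111 in hepatectomy livers, against 1834 and 1822 in sham livers (log2 fold change 2.62 ± 0.12; limma adjusted p = 0.000218), and Apoc2, named after its value was seen, rose by 0.55. Apoc2 was not called after median centring (adjusted p = 0.191). Fewer genes of the list were called lower without sham replicate 1, sham replicate 2 or hepatectomy replicate 1, and more without hepatectomy replicate 2. Fewer were called higher when sham replicate 2 or hepatectomy replicate 1 was left out. No probe set of Hnf4a itself was called, and the intervals given above show, on the scale tested, how large a change could have been missed.

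Of 19 C/EBP alpha targets, a list that also holds Cebpd, 1 rose and 0 fell. The riser was Cdkn1a, the cell cycle inhibitor p21, whose protein C/EBP alpha stabilises (log2 fold change 3.07 ± 0.28, limma adjusted p = 0.00138). As that effect is on the protein, the rise of its transcript is not a reading of C/EBP alpha activity. The median was -0.07 with 15 of 19 values negative, against 47.1% of all genes tested. More of the list was called in both directions without hepatectomy replicate 2, and more was called lower without sham replicate 2. Of 17 FOXA targets, a list that also holds Foxa1 and Hnf4a, limma called 0. An unadjusted p under 0.05 was found for 3 of the 17, against 16.6% of all tested probe sets. Counts this near the background are not a result about the FOXA targets. Tat, Pck1 and G6pc, enzymes of amino acid breakdown and glucose output, had log2 fold changes of 0.01 ± 0.13, -0.02 ± 0.10 and 0.18 ± 0.14, and Alb and Ttr had -0.09 ± 0.11 and -0.07 ± 0.10; the signs of Tat, Pck1, Alb and Ttr turned in at least 1 alternative. Afp, a fetal liver gene, gave 247 and 209 in hepatectomy livers, against 65.2 and 106 in sham livers; its log2 fold change of 1.36 ± 0.32 did not pass (limma adjusted p = 0.0637) but passed with median centring (0.0486), with robust eBayes (0.0431), with the replicate number as a block (0.0162) and without hepatectomy replicate 2 (0.0438). Igfbp1, an insulin-like growth factor binding protein, lay at 0.48 ± 0.19 (limma adjusted p = 0.268), and was called without sham replicate 2 (0.0427). Without hepatectomy replicate 1 the FOXA targets held 1 lower, without hepatectomy replicate 2 they held 1 higher and 2 lower, and without sham replicate 2 they held 1 higher.

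Of 8 Onecut1 targets measured, 1 fell and 1 rose: Cyp7a1 and Ccnd1, the G1 cyclin (log2 fold change 1.80 ± 0.20; limma adjusted p = 0.00328). Without sham replicate 2, 2 rose. The bile duct keratin Krt19 gave 394 and 302 in hepatectomy livers and 74.6 and 205 in sham livers, and its log2 fold change of 1.41 ± 0.43 did not pass (limma adjusted p = 0.140). It was called with the replicate number as a block (0.0192) and without sham replicate 2 (2.09, adjusted p = 0.0378), and lay at 0.73 without sham replicate 1. The list also holds Foxa2 and Hnf4a. Promoter windows are printed for Cyp8b1, the HNF4A target with the lowest log2 fold change, and for Alb, an abundant target that was not called.

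Cyp8b1, chr9:121916256-121916555, minus strand: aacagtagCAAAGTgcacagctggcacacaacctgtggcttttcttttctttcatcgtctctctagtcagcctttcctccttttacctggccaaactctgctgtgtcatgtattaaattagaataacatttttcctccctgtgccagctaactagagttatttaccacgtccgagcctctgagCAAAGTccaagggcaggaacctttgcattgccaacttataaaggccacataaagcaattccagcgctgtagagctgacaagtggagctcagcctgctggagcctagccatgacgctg
Alb, chr5:90460620-90460919, plus strand: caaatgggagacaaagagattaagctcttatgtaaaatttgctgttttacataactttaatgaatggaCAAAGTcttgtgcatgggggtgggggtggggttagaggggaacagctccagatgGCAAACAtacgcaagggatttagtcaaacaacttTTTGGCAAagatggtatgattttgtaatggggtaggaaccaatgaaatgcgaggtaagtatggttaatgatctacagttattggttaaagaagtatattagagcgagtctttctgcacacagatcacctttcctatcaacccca

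The Cyp8b1 window held the HNF4 motif 242 and 67 bases before the transcript start. The Alb window held an HNF4 motif at 182, a FOXA motif at 128 and a C/EBP motif at 94 bases before the start.

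**Figure D4:**
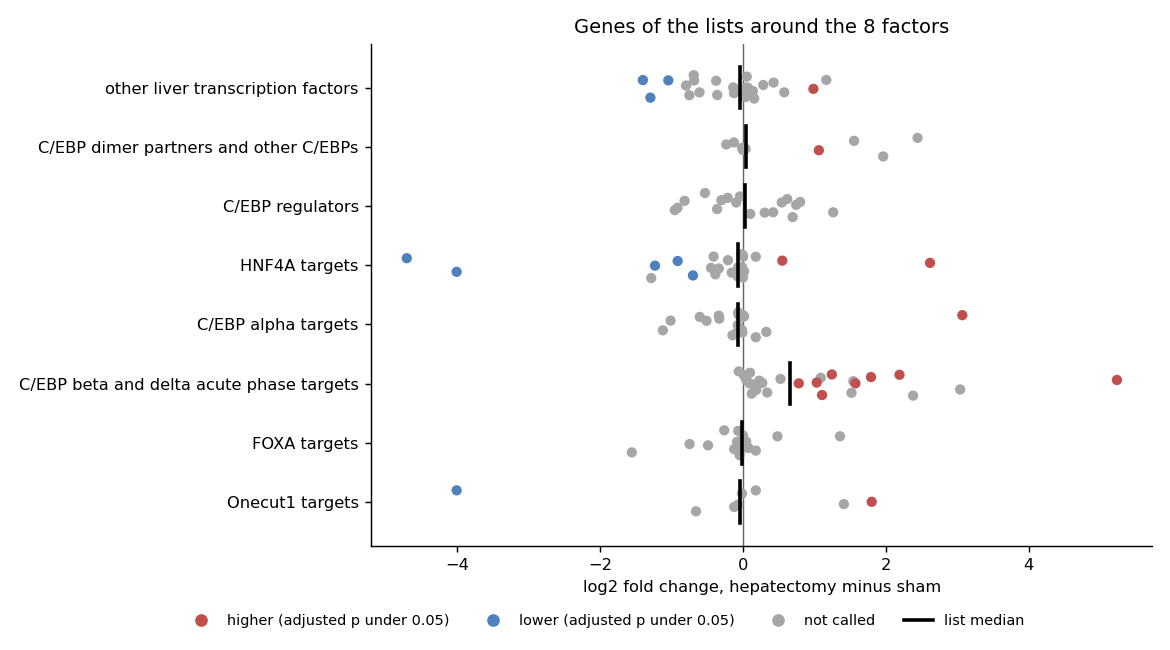
Log2 fold change, hepatectomy minus sham, of every measured gene of 8 lists, 1 point per gene, red where higher and blue where lower at a limma adjusted p under 0.05, grey where not called; black bars are list medians. The acute phase targets have the highest median, 0.65, and the other medians lie between -0.08 and 0.03.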

How the data were processed

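Total RNA was labelled with biotin and hybridised to Affymetrix mouse arrays. The values are the signal intensities deposited by the authors, on a linear scale; the submitters' processing notes name GCOS 1.4. No source used here gives its settings, detection calls or scan dates, and no batch could therefore be tested. The equal trimmed means show scaling of each array before deposit, which was kept. Of 45101 probe sets, 64 controls were left out; 34945 of the rest had 1 gene symbol, 932 several and 9160 none. Deposited signals were turned to log2 after adding 8.58, the 20th percentile of all values. A filter at the 40th percentile of mean log2 values (5.09) kept 27022. Hepatectomy was set against sham with limma 3.58.1 in R 4.3.3 (lmFit, then eBayes with a mean-variance trend; two-sided). The residual degrees of freedom were 2 and the prior's 6.02. Standard errors and intervals are limma's, and the code was tested on simulated data.

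Named genes were all members; up to 4 called genes of each list by adjusted p; up to 2 others by mean; and a few genes named whatever their values. For members changed by at least 1 on the log2 scale, genes of like pattern were to be named; no member's brightest probe set changed that much. Members and lists were chosen with earlier results of these data known. Alternatives were the offset, the filter, the scaling, the eBayes options, the replicate block, each array left out and other ways of combining probe sets. The number of arrays limits the precision.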

Additional observations from a re-analysis of the deposited data

How the results depend on the processing

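The direction and the side of the threshold were kept in 166 of 182 values of the 14 member probe sets under alternatives; 12 turned sign and 4 passed the threshold. The number of member probe sets called was 0 in the reported fit and 1 with quantile normalization, with robust eBayes and with the replicate block (Cebpa each time), and 1 without hepatectomy replicate 1 (Foxa1), so 0 to 1 when 1 array was left out. All probe sets called numbered 916, against 308 with no filter, 258 with no mean-variance trend and 1943 with the replicate block, and 341 to 2012 when 1 array was left out (sham replicate 1 gives 341, sham replicate 2 gives 479 and hepatectomy replicate 2 gives 2012); the causes were not tested. The arrays share replicate numbers only: deviations of same-numbered arrays correlated at 0.10 over probe sets, and with 2 pairs no pairing can be taken from this. After median centring, the median of all tested probe sets lay at -0.09 on the log2 scale, and no member turned sign under either scaling.

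Signs turned as follows, mostly when 1 array was left out (log2 fold change, with the array left out). Hnf4a (1427000_at) lay between -0.388 (sham replicate 1 left out) and 0.047 (sham replicate 2). Hnf4a (1421983_s_at) lay between -0.364 (hepatectomy replicate 2 left out) and 0.579 (hepatectomy replicate 1). Hnf4a (1450447_at) lay between -0.331 (hepatectomy replicate 2 left out) and 0.256 (hepatectomy replicate 1), and at 0.162 (sham replicate 2). Foxa3 (1431900_a_at) lay between -0.121 (hepatectomy replicate 1 left out) and 0.027 (hepatectomy replicate 2), and at 0.022 (sham replicate 1). Cebpb (1418901_at) lay between -0.061 (sham replicate 2 left out) and 0.344 (sham replicate 1). Cebpb (1427844_a_at) lay between -0.179 (sham replicate 2 left out) and 0.532 (sham replicate 1). Cebpd (1423233_at) lay between -0.258 (hepatectomy replicate 1 left out) and 0.249 (hepatectomy replicate 2), and at 0.004 (sham replicate 1). Onecut1 (1450252_at) lay between -0.987 (sham replicate 2 left out) and 0.293 (sham replicate 1). Onecut1 (1421447_at) lay between -0.734 (sham replicate 2 left out) and 1.077 (sham replicate 1). Alb lay between -0.212 (sham replicate 2 left out) and 0.041 (sham replicate 1). Cebpg lay between -0.122 (sham replicate 1 left out) and 0.09 (sham replicate 2), and at 0.083 (hepatectomy replicate 1). Onecut2 lay between -0.029 (hepatectomy replicate 2 left out) and 0.164 (hepatectomy replicate 1), and at -0.019 with median centring and -0.025 (sham replicate 1). Pck1 lay between -0.057 (hepatectomy replicate 1 left out) and 0.023 (hepatectomy replicate 2), and at 0.022 with quantile normalization. Tat lay between -0.103 (hepatectomy replicate 1 left out) and 0.129 (hepatectomy replicate 2), and at -0.073 with median centring and -0.065 (sham replicate 2). Ttr lay between -0.154 (sham replicate 2 left out) and 0.016 (sham replicate 1). With the mean of its probe sets, Cebpd lay at 0.082.

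Of 22 other called genes named, 16 lost their call with no mean-variance trend, 13 with no filter, and 8, 9 and 4 when sham replicate 1, sham replicate 2 and hepatectomy replicate 1 were left out in turn. These 22 leave out the called stellate cell and adipocyte markers named below, and the calls those markers lost are not counted here. Among the 22, the calls lost when 1 array was left out were those of Srebf1, Dbp, Mlxipl, Atf5, Nfil3, Cyp27a1, Apoc2, Ugt2b1, Abcg8, Lbp and Orm3.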

Other observations

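Of markers of other cell types, 4 of 10 stellate cell markers rose after hepatectomy (Acta2, Col1a1, Col1a2 and Col3a1), 0 fell and 6 were not called. Of those 6, Lrat (-0.75), Reln (-0.46) and Dcn (-0.12) had negative log2 fold changes. The 10 markers summed to a signal of 13926 and 12128 on the hepatectomy arrays, against 7859 and 10305 on the sham arrays. Without sham replicate 1, 1 of the 10 was called higher. The 12 macrophage markers on the array summed to 28549 and 25411 after hepatectomy, against 26360.0 and 28282 after sham surgery, with 1 of 11 tested called higher and 1 lower. Limma called 0 of 7 cholangiocyte markers, with 4 under an unadjusted p of 0.05 (1 was called higher without hepatectomy replicate 2 and without sham replicate 2), and 0 of 10 endothelial markers, with 1 under it. Exocrine pancreas markers, from another organ that expresses Hnf4a, Foxa2 and Onecut1, summed to 732 and 1105 on the hepatectomy arrays, against 1521 and 1522 on the sham arrays. Of the 8 on the array, 6 were too dim to test. Cela1 alone gave 640 and 1044, against 1360 and 1392, so the sums mostly reflect 1 gene. Their part in the values of the factors was not tested. Of 7 adipocyte markers tested, Fabp4 rose (log2 fold change 1.53 ± 0.24, limma adjusted p = 0.0157) and Thrsp fell by 2.49 ± 0.49 (limma adjusted p = 0.0342). Neither call held without sham replicate 1. The median of the 7 was 1.53, with 2 of 7 values negative. This median depended on hepatectomy replicate 1: without that array only 4 of the markers were bright enough to be tested, and their median was 0.24.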
